A study of Mus musculus with 18 samples.

Results

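The Hox genes are the homeobox transcription factor genes of the Hoxa, Hoxb, Hoxc and Hoxd clusters, and they were followed over 18 mouse expression arrays of iPSC reprogramming. Every gene with a symbol made of Hoxa, Hoxb, Hoxc or Hoxd and a number was taken, provided that a probe set carried its symbol alone, and a gene with several such probe sets was read from the one with the highest mean. This gave 36 of the 39 Hox genes that RefSeq names, among 22180 genes read in the same way: 9 of Hoxa, 10 of Hoxb, 9 of Hoxc and 8 of Hoxd. No expression value is given for the others.

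All samples are labelled as strain Black6-129X1/SvJ. The tested cultures were bulk populations of reprogrammable mouse embryonic fibroblasts (Rep-MEFs), which express the factors OKSM (Oct4, Klf4, Sox2 and Myc) when induced, grown with ascorbic acid and a GSK3 inhibitor, together called AGi. They were set against the same kind of Rep-MEFs with OKSM alone. Each arm gave a single array on days 2, 4, 6, 8, 10 and 12. The remaining 6 arrays were Thy1+ cells sorted from OKSM cultures on day 3 and labelled refractory, Fibroblast-iPSCs made with 4 days of AGi, GMP-iPSCs made with 2 days of AGi, wild-type ESCs, granulocyte-macrophage progenitors (GMPs) and Rep-MEFs without doxycycline, called MEFs here. Which clones the iPSC arrays came from, and which part of the embryo the MEFs came from, is not given in the sources used here. There were no repeats of any arm and day, and the labels do not say whether each day was a culture of its own, so p-values reflect only the scatter between days, which may be technical.

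Hox genes lie in 4 clusters and are numbered by paralog group in the order in which they sit along each cluster, from the 3′ end, which carries the low numbers, to the 5′ end, which carries the high ones. In the embryo the low groups are switched on first and reach farthest towards the head, and the high groups are switched on last, in the tail and, for Hoxa and Hoxd, in the outer part of the limb. Fibroblasts keep the Hox pattern of the place they came from, whereas pluripotent cells hold the clusters silent under Polycomb, and blood progenitors use mainly Hoxa genes and Hoxb4. A Hox profile is a record of position in fibroblasts and of lineage in blood.

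Values are RMA log2 values, in which a difference of 1 is a 2-fold difference in signal on the array. Array medians lay between 6.32 and 6.46, so a gene near that level was not clearly above the middle of its array, and the values of different genes are not compared as amounts of RNA. The labelled cell types carried their markers: the mean of 12 pluripotent cell markers was 10.77 in Fibroblast-iPSCs, 10.83 in GMP-iPSCs and 10.73 in ESCs, against 6.3 in MEFs. The mean of 12 markers of granulocyte-macrophage progenitors was 11.65 in GMPs, and that of 13 fibroblast markers was 10.63 in MEFs. Of 18 bacterial hybridisation control probe sets, all 18 were higher with AGi over the 6 days, by 0.06 to 0.26, which is a limit on small AGi effects.

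Pluripotent cells were lower than MEFs for most Hox genes. The mean of Fibroblast-iPSC, GMP-iPSC and ESC arrays was lower than MEFs by at least 1 log2 for 24 of the 36 Hox genes and higher by that much for none, while 12.4% of all genes compared were lower by that much. The median difference was -1.42 over the Hox genes and 0.04 over all genes compared. These are single arrays, compared by size and without a test. In bulk samples such as these, fewer cells of a type and less RNA per cell cannot be told apart.

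The 10 Hox genes with the highest array values in MEFs were of paralog groups 5 to 9, apart from Hoxd13 and Hoxd11. Hoxb9, a gene of the thoracic trunk, was at 8.43, 7.69 and 7.62 in Fibroblast-iPSCs, GMP-iPSCs and ESCs, against 10.71 in MEFs. For Hoxc8, which patterns thoracic vertebrae, the values were 8.54, 6.34 and 7.16 in the same order, against 10.23 in MEFs. Hoxc6, a marker of the thoracic level, was at 6.80, 5.78 and 6.21, against 9.57. MEFs were above all 3 pluripotent arrays for each of these genes, and Hoxc8 spread most among the 3. Hoxa6 was at 7.53, 7.12 and 7.46 in the pluripotent arrays, against 9.40 in MEFs, and Hoxb5, a gene of the lower neck and upper trunk, at 7.09, 6.5 and 6.55, against 9.14. Hoxa5, needed for lung and neck skeleton development, was at 5.90, 5.56 and 5.60, against 8.91 in MEFs. Hoxd13, which patterns the digits, was at 6.83, 6.41 and 5.80, against 9.31, and Hoxd11, a gene of the forearm, at 6.70, 6.44 and 6.18, against 8.52. Hoxb6 was at 6.22, 6.10 and 6.39, against 8.77 in MEFs. Hoxa7 stood apart from the other genes that were high in MEFs, because it was high everywhere: 8.15, 8.02 and 8.07 in the pluripotent arrays, against 8.85 in MEFs.

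The cutoff of 1 log2 fell in a run of close values. Hoxa4 and Hoxc4 were just inside, with MEFs 1.02 and 1.20 above the pluripotent mean, and Hoxb2, Hoxc11, Hoxa7 and Hoxd12 were just outside, with 0.83, 0.78, 0.77 and 0.72. Hoxb1, Hoxb13, Hoxd1 and Hoxd3 stayed within 0.1 of the pluripotent mean in MEFs, and Hoxc13 was 0.29 below it. Hoxb5 has a second probe set that was flatter, at 7.37, 7.20 and 7.09 in the pluripotent arrays, against 7.50 in MEFs, so the Hoxb5 values rest on 1 of 2 probe sets. The plot of Hox genes in pluripotent cells, GMPs and MEFs shows that the gap between MEFs and the others was widest for Hoxc6, Hoxa5, Hoxd13, Hoxc8 and Hoxb9.

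**Figure D1:**
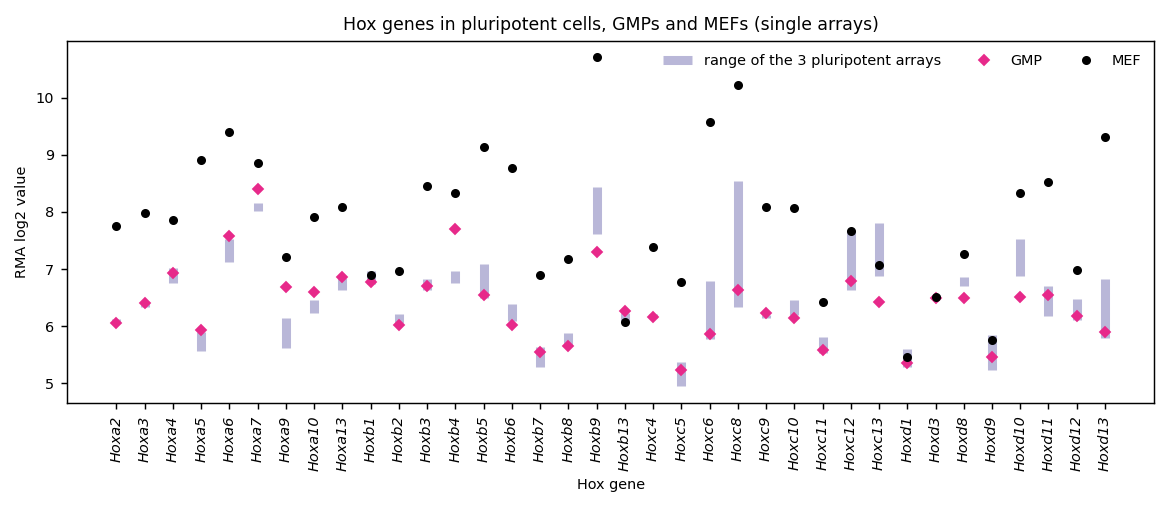
RMA log2 value (vertical axis) of each of the 36 Hox genes (horizontal axis) in single arrays: bars span the Fibroblast-iPSC, GMP-iPSC and ESC arrays, diamonds are GMPs and black points are MEFs. MEFs sit at least 1 log2 above the pluripotent mean for 24 genes, and GMPs lie within 1 log2 of that mean for all 36.

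GMPs were far below MEFs for most Hox genes and slightly above pluripotent cells for most Hoxa genes. Against MEFs, 21 of 36 Hox genes were lower in GMPs by at least 1 log2, beside 13.2% of all genes compared, and none was higher by that much. Against the pluripotent mean, no Hox gene was higher in GMPs by 1 log2, whereas 11.7% of all genes compared were. The 2 genes that came closest were Hoxb4, which expands blood stem cells when forced on, and Hoxa9, a driver of myeloid progenitors and leukaemia. Hoxb4 was at 7.70 in GMPs, against 6.97, 6.85 and 6.76 in Fibroblast-iPSCs, GMP-iPSCs and ESCs. Hoxa9 was at 6.69 in GMPs, against 6.15, 5.83 and 5.61. Both genes were thus above all 3 pluripotent arrays, by 0.84 and 0.83 over their mean.

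Within Hoxa, 6 of 9 genes were above all 3 pluripotent arrays in GMPs (Hoxa5, Hoxa6, Hoxa7, Hoxa9, Hoxa10 and Hoxa13), and 9 of the 36 Hox genes were. Of all genes compared, 38.2% were. The Hoxa excess was small apart from Hoxa9, with 0.32 for Hoxa7, 0.25 for Hoxa5 and 0.24 for Hoxa10. Of the 8 Hox cofactors on the array, 3 were above the pluripotent mean in GMPs and 5 below it, with a median difference of -0.18 and a range of -1.17 for Meis2 to 1.57 for Meis1. Meis1, the DNA-binding partner of Hoxa9 in blood progenitors, was at 7.80 in GMPs, against 6.36, 6.34 and 5.99 in Fibroblast-iPSCs, GMP-iPSCs and ESCs. On the low side, GMPs were below the pluripotent mean by 0.72 for Hoxc8, 0.62 for Hoxb9 and 0.95 for Hoxc13.

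The 2 iPSC arrays differed in their distance from ESCs. Fibroblast-iPSCs were above ESCs by at least 1 log2 for 3 Hox genes, Hoxc8, Hoxc12 and Hoxd13, and below by that much for none, beside 2.54% of all genes compared that were higher by that much. Hoxc8 was at 8.54 in Fibroblast-iPSCs, against 7.16 in ESCs. Hoxc12 was at 7.69 against 6.64, and Hoxd13 at 6.83 against 5.80. In GMP-iPSCs no Hox gene passed 1 log2 in either direction, beside 0.950% higher and 1.16% lower of all genes compared, and Hoxc8 was at 6.34. The counts depend on the cutoff. Hoxc12 and Hoxd13 passed it narrowly in Fibroblast-iPSCs, with 1.05 and 1.03, and Hoxc12 was 0.82 above ESCs in GMP-iPSCs. Hoxc13 was above ESCs by 0.57 in Fibroblast-iPSCs and by 0.93 in GMP-iPSCs. All 13 fibroblast markers were higher in Fibroblast-iPSCs than in ESCs as well, with a mean of 8.93 against 8.09, and 7.32 in GMP-iPSCs. The part of these markers in the Hox difference was not tested.

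Between days 6 and 8, in both arms, distal Hoxa and Hoxd genes were higher on the later day while Hoxb, Hoxc and proximal Hoxa genes were lower. On day 8, OKSM+AGi cultures had 2 Hox genes above and 4 below their day 6 value by at least 1 log2, beside 1.47% and 0.409% of all genes compared. In OKSM cultures 5 were higher and 7 lower, beside 3.02% and 0.510%. The genes that were higher by that much were Hoxa13 and Hoxd13 in OKSM+AGi cultures, and Hoxa10, Hoxa13, Hoxd11, Hoxd12 and Hoxd13 in OKSM cultures. The lower ones were Hoxb3, Hoxb6, Hoxc6 and Hoxc8 in both arms, joined in OKSM cultures by Hoxb2, Hoxb5 and Hoxc9. No other step between neighbouring days listed any Hox gene past 1 log2 in either arm. Of all genes compared in those steps, 0.0673% to 2.41% were higher by that much and 0.0371% to 1.90% lower. The lack of Hox genes there is near those shares and is not particular to them.

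The sign of the difference went with cluster and paralog group. All 8 Hoxa and Hoxd genes of groups 9 to 13 were higher on day 8 than on day 6 in OKSM+AGi cultures (median 0.73) and in OKSM cultures (median 1.16). Of the 9 Hoxa and Hoxd genes of groups 1 to 8, 8 were lower in each arm, with medians of -0.38 in OKSM+AGi cultures and -0.30 in OKSM cultures. The 19 Hoxb and Hoxc genes were all lower in OKSM+AGi cultures, and 18 of 19 were lower in OKSM cultures. Their medians were -0.67 and -0.71, against 0.01 over all genes compared in each arm. This grouping was drawn after the values were seen and describes them only. On day 8 the 5′ Hoxc genes did not join the 5′ Hoxa and Hoxd genes. Hoxc9, Hoxc10, Hoxc11, Hoxc12 and Hoxc13 were below their day 6 value in both arms. For Hoxc12 the differences were small, -0.15 in OKSM+AGi and -0.08 in OKSM cultures. In OKSM cultures Hoxc12 was at 7.56 and 7.80 on days 10 and 12, above its day 6 value of 7.15. In OKSM+AGi cultures Hoxc13 was at 7.44 on day 12, above its day 6 value of 7.23.

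**Figure D2:**
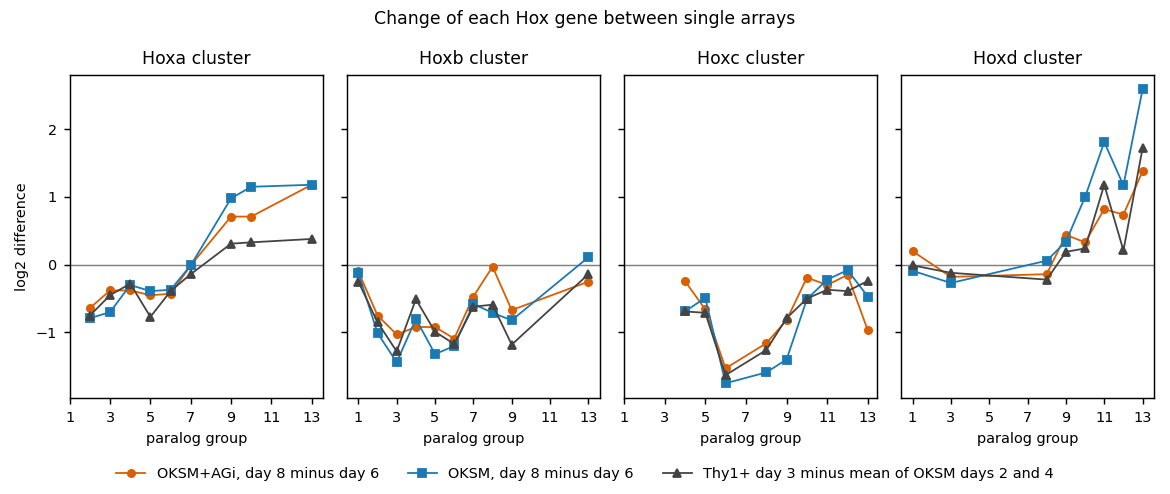
Log2 difference (vertical axis) by paralog group (horizontal axis) for the 4 clusters: circles are OKSM+AGi day 8 minus day 6, squares OKSM day 8 minus day 6, and triangles Thy1+ day 3 minus the mean of OKSM days 2 and 4. In Hoxa and Hoxd the lines cross 0 between the low and the high groups and reach 2.59 for Hoxd13 in OKSM cultures, while Hoxb and Hoxc stay at or below 0 except for 0.11 for Hoxb13.

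The 2 arms gave similar differences gene by gene. Across the 36 Hox genes the day 6 to day 8 differences of the arms correlated with r = 0.94, and 33 had the same sign, which is 91.7%. Across the 13865 genes that passed the filter on low values, r was 0.63 and 67.5% had the same sign. The arms share no array, and genes are not independent replicates, so this is a description. The hybridisation controls moved by -0.33 to 0.06 in OKSM+AGi cultures and by -0.33 to 0.01 in OKSM cultures over the same step. All 13 fibroblast markers were higher on day 8 than on day 6 in both arms, and their mean was 9.72 to 10.05 on days 8 to 12 against 8.10 to 9.51 on days 2 to 6 in OKSM+AGi cultures, and 10.72 to 10.94 against 9.24 to 10.13 in OKSM cultures. Of 13 macrophage markers, 10 were higher on day 8 in OKSM+AGi cultures and 12 in OKSM cultures, with means of 6.82 to 7.0 on days 8 to 12 against 6.45 to 7.75 on days 2 to 6 in OKSM+AGi cultures, and 7.75 to 8.11 against 6.56 to 7.87 in OKSM cultures. The part of either marker list in the Hox change was not tested. Whether the cultures of days 2 to 6 and of days 8 to 12 came from the same preparation of MEFs is not given in the sources used here, and its part was not tested.

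The same break was tested with the 3 late days (8, 10 and 12) against the 3 early days (2, 4 and 6) of each arm. A gene was tested if 3 or more of the 12 time-course arrays showed it at or above the array's own median, which held for 31 of the 36 Hox genes. It was called at an adjusted p under 0.05 from limma, with Benjamini-Hochberg adjustment over all 13865 genes tested. Since the break had been seen in these data, the p-values describe how far the days separate and do not test where the break lies. Late OKSM+AGi cultures had 4 Hox genes higher and 14 lower, beside 6.58% and 3.95% of all genes tested. Late OKSM cultures had 7 higher and 12 lower, beside 6.95% and 3.65%. The 7 genes that rose in OKSM cultures were all Hoxa and Hoxd genes of groups 9 to 13, and the 4 that rose in OKSM+AGi cultures were among them. Without day 4, 1 Hox gene was called higher and 9 lower in OKSM+AGi cultures, beside 91 and 50 of all 13865 genes tested. With a linear day term added in each arm, the step itself was called for no Hox gene in OKSM+AGi cultures and for 3 higher and 2 lower in OKSM cultures. Over all 13865 genes that fit called 1 higher and 2 lower in OKSM+AGi cultures, and 43 and 9 in OKSM cultures. With so few calls over all genes in OKSM+AGi cultures, the lack of a Hox call there says little about the step.

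Of the 8 Hoxa and Hoxd genes of groups 9 to 13, 4 rose in OKSM+AGi cultures and 7 in OKSM cultures, and Hoxd9 was called in neither arm, with differences of 0.19 ± 0.14 and 0.28 ± 0.14 (limma, adjusted p = 0.4 and 0.244). Hoxd13 was at 8.78, 8.41, 8.10, 9.48, 9.15 and 9.34 in OKSM+AGi cultures on days 2, 4, 6, 8, 10 and 12, and at 8.99, 8.80, 8.25, 10.84, 10.82 and 10.89 in OKSM cultures. All 3 late arrays stood above the 3 early ones in each arm, by 0.89 ± 0.20 (log2, limma SE, n = 3 late and 3 early days, adjusted p = 0.0214 from limma) in OKSM+AGi cultures and by 2.17 ± 0.20 (limma, adjusted p = 0.000132) in OKSM cultures. Hoxd11 was at 7.73, 7.76, 7.63, 8.45, 8.36 and 8.47 in OKSM+AGi cultures and at 8.12, 8.45, 8.10, 9.91, 9.97 and 10.18 in OKSM cultures on the same days. It rose by 0.72 ± 0.11 in OKSM+AGi cultures (limma, adjusted p = 0.00515) and by 1.80 ± 0.11 in OKSM cultures (limma, adjusted p = 9.62e-06). Hoxd10, a gene of the forearm and hindlimb nerves, was at 7.59, 7.74, 7.51, 7.84, 7.98 and 7.83 in OKSM+AGi cultures and at 7.93, 8.26, 7.91, 8.91, 9.09 and 9.10 in OKSM cultures. The late arrays of OKSM cultures stood well apart, and Hoxd10 rose by 0.99 ± 0.11 there (limma, adjusted p = 0.000356), while the difference in OKSM+AGi cultures was 0.27 ± 0.11 (limma, adjusted p = 0.14). Hoxd12 rose by 0.86 ± 0.18 in OKSM cultures (limma, adjusted p = 0.0131), with a difference of 0.32 ± 0.18 in OKSM+AGi cultures (limma, adjusted p = 0.267).

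**Figure D3:**
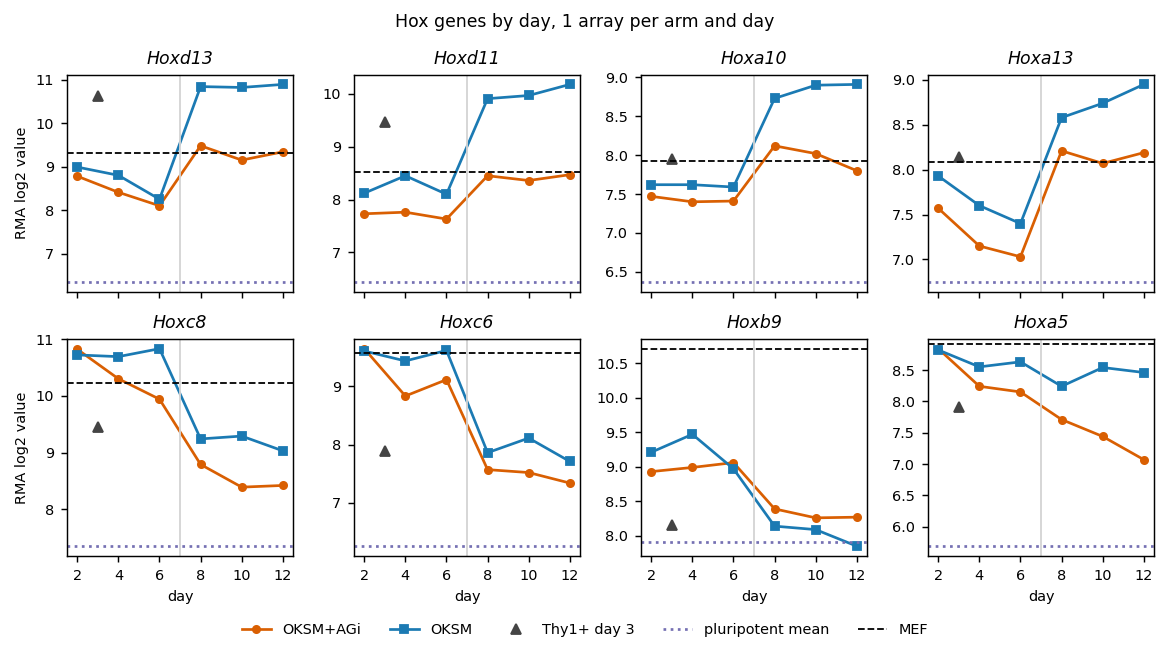
RMA log2 value (vertical axes, which differ between panels and do not start at 0) by day (horizontal axes) for 8 Hox genes, with 1 array per point: circles are OKSM+AGi, squares OKSM, the triangle Thy1+ cells, the dashed line MEFs and the dotted line the pluripotent mean. Hoxd13, Hoxd11, Hoxa10 and Hoxa13 step up after day 6 in both arms, Hoxc8, Hoxc6 and Hoxb9 step down, and Hoxa5 falls from day to day in OKSM+AGi cultures to 7.07 on day 12.

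In Hoxa, Hoxa13 and Hoxa10 rose in both arms and Hoxa9 in OKSM cultures. Hoxa13, the partner of Hoxd13 in the hand and foot, was at 7.57, 7.15, 7.03, 8.21, 8.07 and 8.19 in OKSM+AGi cultures and at 7.93, 7.60, 7.40, 8.58, 8.74 and 8.95 in OKSM cultures on days 2 to 12. It rose by 0.91 ± 0.17 in OKSM+AGi cultures (limma, adjusted p = 0.0108) and by 1.11 ± 0.17 in OKSM cultures (limma, adjusted p = 0.00198). Hoxa10, which patterns the lumbar spine and the uterus, was at 7.47, 7.40, 7.41, 8.12, 8.02 and 7.80 in OKSM+AGi cultures and at 7.62, 7.62, 7.59, 8.73, 8.90 and 8.91 in OKSM cultures. The late arrays lay above the early ones in both arms, by 0.55 ± 0.09 in OKSM+AGi cultures (limma, adjusted p = 0.00739) and by 1.24 ± 0.09 in OKSM cultures (limma, adjusted p = 3.28e-05). Hoxa9 was at 7.41, 7.46, 7.58, 8.29, 7.85 and 7.57 in OKSM+AGi cultures and at 7.22, 7.20, 7.20, 8.18, 8.25 and 8.33 in OKSM cultures. It rose by 1.05 ± 0.15 in OKSM cultures (limma, adjusted p = 0.00134), and in OKSM+AGi cultures it returned on day 12 to its day 6 level, with a difference of 0.42 ± 0.15 (limma, adjusted p = 0.0868).

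In Hoxc, Hoxc8, Hoxc6, Hoxc9 and Hoxc4 fell in both arms. Hoxc8 was at 10.82, 10.30, 9.94, 8.79, 8.39 and 8.42 in OKSM+AGi cultures and at 10.72, 10.69, 10.83, 9.24, 9.29 and 9.03 in OKSM cultures on days 2 to 12, and it fell by 1.83 in OKSM+AGi and fell by 1.56 in OKSM cultures (log2, SE 0.19 in each arm). Hoxc6 was at 9.64, 8.83, 9.11, 7.57, 7.52 and 7.34 in OKSM+AGi cultures and at 9.60, 9.43, 9.61, 7.86, 8.11 and 7.71 in OKSM cultures, and it fell by 1.72 in OKSM+AGi and fell by 1.65 in OKSM cultures (SE 0.18 in each arm). For both genes the late days lay below all early days in each arm. Hoxc9, a gene of the lower thorax, was at 7.44, 7.06, 6.98, 6.16, 6.14 and 6.31 in OKSM+AGi cultures and at 7.49, 7.67, 7.67, 6.27, 6.69 and 6.44 in OKSM cultures, and it fell by 0.96 ± 0.14 and 1.14 ± 0.14. Limma's adjusted p for these 3 genes lay between 0.000287 and 0.00386. Hoxc4 fell by 0.64 in OKSM+AGi cultures and by 0.76 in OKSM cultures. Hoxc12 went the other way in OKSM cultures, with a difference of 0.43 that was not called.

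Of 8 Hoxb genes tested, 5 fell in OKSM+AGi cultures and 7 in OKSM cultures, and Hoxb1 was called in neither arm. Hoxb9 was at 8.93, 8.99, 9.06, 8.39, 8.26 and 8.27 in OKSM+AGi cultures and at 9.21, 9.47, 8.97, 8.14, 8.09 and 7.85 in OKSM cultures, and it fell by 0.69 ± 0.13 and 1.19 ± 0.13. Hoxb6 was at 8.01, 8.11, 7.91, 6.82, 6.55 and 6.56 in OKSM+AGi cultures and at 7.96, 8.09, 8.18, 6.98, 7.04 and 6.96 in OKSM cultures, and it fell by 1.37 ± 0.10 and 1.08 ± 0.10. On every late array both genes were nearer the pluripotent mean, 7.91 for Hoxb9 and 6.23 for Hoxb6, than MEFs. Hoxb9 was already nearer that mean on every early OKSM+AGi array and on days 2 and 6 in OKSM cultures. For Hoxb9 this does not separate late from early days. Hoxb5 was at 8.0, 8.29, 8.28, 7.36, 7.0 and 7.11 in OKSM+AGi cultures and at 8.27, 8.35, 8.73, 7.42, 7.47 and 7.35 in OKSM cultures, and it fell by 1.03 ± 0.14 and 1.04 ± 0.14. Hoxb3, a hindbrain and neck gene, was at 8.34, 8.66, 8.61, 7.58, 7.50 and 7.21 in OKSM+AGi cultures and at 8.57, 8.88, 9.02, 7.58, 7.54 and 7.67 in OKSM cultures, and it fell by 1.11 ± 0.14 and 1.23 ± 0.14. Limma's adjusted p for these 4 genes lay between 6.09e-05 and 0.0108. Hoxb4 was at 7.92, 7.79, 8.02, 7.10, 7.16 and 7.0 in OKSM+AGi cultures and at 7.71, 7.71, 8.01, 7.21, 7.24 and 7.12 in OKSM cultures, and it fell by 0.82 and 0.62. Hoxb2 and Hoxb8 were called lower in OKSM cultures, with differences of -0.77 and -0.73 (limma, adjusted p = 0.00282 and 0.00323), and not in OKSM+AGi cultures, where the differences were -0.39 and -0.38 (limma, adjusted p = 0.0619 for each).

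Of the Hoxa genes, 5 fell in OKSM+AGi cultures and 1, Hoxa2, in OKSM cultures. Hoxa5 was at 8.84, 8.24, 8.15, 7.71, 7.44 and 7.07 in OKSM+AGi cultures and at 8.82, 8.55, 8.63, 8.24, 8.54 and 8.46 in OKSM cultures, with a fall of 1.0 ± 0.20 in OKSM+AGi cultures (limma, adjusted p = 0.0134) and a difference of -0.26 ± 0.20 in OKSM cultures (limma, adjusted p = 0.436). Hoxa6 was at 9.18, 9.18, 9.08, 8.66, 8.37 and 8.02 in OKSM+AGi cultures and at 9.09, 9.15, 9.35, 8.98, 9.25 and 9.12 in OKSM cultures, with a fall of 0.80 ± 0.15 in OKSM+AGi cultures (limma, adjusted p = 0.0108) and a difference of -0.08 ± 0.15 in OKSM cultures (limma, adjusted p = 0.762). The OKSM+AGi values of both genes were lowest on day 12. In OKSM cultures the early and late days of Hoxa6 overlapped, and those of Hoxa5 nearly touched, at 8.54 and 8.55. Hoxa2, a gene of the hindbrain and face, fell by 0.92 in OKSM+AGi cultures and by 0.66 in OKSM cultures. Hoxa3 and Hoxa4 fell by 0.85 and 0.76 in OKSM+AGi cultures and were not called in OKSM cultures, where the differences were -0.40 and -0.33 (limma, adjusted p = 0.139 and 0.149). The difference between the arms in this change, tested further on, was not called for any Hoxa gene. Hoxa7 was nearly flat, at 9.01, 8.70, 8.77, 8.76, 8.72 and 8.59 in OKSM+AGi cultures and at 9.05, 8.92, 8.90, 8.88, 8.97 and 8.88 in OKSM cultures.

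The promoters of genes that rose and fell are shown for 4 members whose start site has an entry in RefSeq's promoter table for GRCm38.p6. Each stretch runs from 250 bases before the start to 50 bases after it, 5′ to 3′ on the strand of the gene, and capitals mark the motif TTTAT, searched on both strands. It is the core of sites that Cdx proteins and Hox proteins of the high paralog groups prefer. Hoxd13 (chr2:74667975-74668274, plus strand) and Hoxa13 (chr6:52260831-52261130, minus strand) rose in both arms. Hoxb4 (chr11:96318017-96318316, plus strand) fell in both arms, and Hoxa5 (chr6:52204538-52204837, minus strand) fell in OKSM+AGi cultures.
Hoxd13: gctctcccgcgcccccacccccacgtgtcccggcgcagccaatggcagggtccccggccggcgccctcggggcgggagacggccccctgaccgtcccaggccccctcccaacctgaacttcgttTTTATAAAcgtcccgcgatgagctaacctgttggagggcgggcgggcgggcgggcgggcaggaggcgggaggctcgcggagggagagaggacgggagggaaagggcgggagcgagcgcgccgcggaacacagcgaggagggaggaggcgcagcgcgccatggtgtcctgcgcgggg
Hoxa13: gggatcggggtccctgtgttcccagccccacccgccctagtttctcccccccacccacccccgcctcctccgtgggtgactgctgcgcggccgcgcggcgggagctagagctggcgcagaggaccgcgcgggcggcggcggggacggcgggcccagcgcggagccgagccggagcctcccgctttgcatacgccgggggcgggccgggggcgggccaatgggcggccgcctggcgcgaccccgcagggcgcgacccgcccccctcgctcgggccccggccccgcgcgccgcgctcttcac
Hoxb4: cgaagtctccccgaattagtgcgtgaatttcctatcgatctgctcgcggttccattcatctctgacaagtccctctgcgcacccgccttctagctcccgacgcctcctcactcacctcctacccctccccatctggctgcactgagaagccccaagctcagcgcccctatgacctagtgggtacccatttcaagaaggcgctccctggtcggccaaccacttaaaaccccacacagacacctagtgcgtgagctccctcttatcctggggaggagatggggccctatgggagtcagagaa
Hoxa5: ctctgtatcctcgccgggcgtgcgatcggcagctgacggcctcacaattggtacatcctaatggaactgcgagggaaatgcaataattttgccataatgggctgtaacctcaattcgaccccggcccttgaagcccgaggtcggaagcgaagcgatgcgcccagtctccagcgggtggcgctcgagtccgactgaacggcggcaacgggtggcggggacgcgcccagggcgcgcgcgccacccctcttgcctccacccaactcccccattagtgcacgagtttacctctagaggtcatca
The Hoxd13 promoter held 2 matches, 1 on each strand and overlapping, and the other 3 held none. Matches on either strand were in 9 of 24 Hox promoters of 22 genes (37.5%) and in 40.0% of the 32851 promoters in the table; of these 22 genes, 20 have expression values here. The Hox promoters differed widely in CG dinucleotides, the target of DNA methylation and the mark of CpG islands: these 4 held 37, 45, 14 and 29, and the range over the 24 was 4 to 45. Their median was 14.5, against 7.0 over all promoters in the table.

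The Thy1+ array, which took no part in the fits, was labelled day 3. It was nearer the late OKSM days for the Hox genes called lower there, but for only Hoxd11 and Hoxd13 of those called higher. Of the 19 Hox genes called between late and early OKSM days, 14 were nearer the late than the early mean in Thy1+ cells, beside 21.4% of all 1469 genes called in that comparison. In MEFs 1 of the 19 was nearer the late mean, beside 32.2%. Hoxd13 was at 10.62 in Thy1+ cells, close to the late OKSM mean of 10.85 and away from the early mean of 8.68. Hoxc6 was at 7.89, with a late mean of 7.90 and an early mean of 9.55. Hoxb6 was at 6.85, below the late mean of 6.99 and the early mean of 8.08. The 5 genes that stayed nearer the early mean were Hoxa9, Hoxa10, Hoxa13, Hoxd10 and Hoxd12, all of which had risen with the step. In that order they were at 7.52, 7.95, 8.14, 8.34 and 6.99 in Thy1+ cells. In MEFs they were at 7.21, 7.92, 8.09, 8.34 and 6.99.

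Set against the OKSM arrays of neighbouring days, the Thy1+ array differed gene by gene much as day 8 differed from day 6. Across the 36 Hox genes, Thy1+ minus the mean of OKSM days 2 and 4 correlated with OKSM day 8 minus day 6 at r = 0.96, with the same sign for 34 genes (94.4%). Across 13865 genes r was 0.38 and 56.6% had the same sign. These 2 differences share no array. Against MEFs, Thy1+ cells had 1 Hox gene higher by at least 1 log2, Hoxd13 by 1.31, and 12 lower, all of Hoxb and Hoxc, beside 4.09% and 3.61% of all genes compared. The largest of these was Hoxb9, at 8.16 in Thy1+ cells against 10.71 in MEFs. The cutoff fell among close values: Hoxb3 passed it at -1.01, while Hoxa3 and Hoxa5 at -1.0 and Hoxc4 at -0.99 fell just short. The 13 fibroblast markers averaged 9.91 in Thy1+ cells, against 10.13 and 9.24 in OKSM cultures on days 2 and 4. Whether the Thy1+ cells came from the same MEF preparation as either part of the time course is not given in the sources used here, and its part was not tested.

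**Figure D4:**
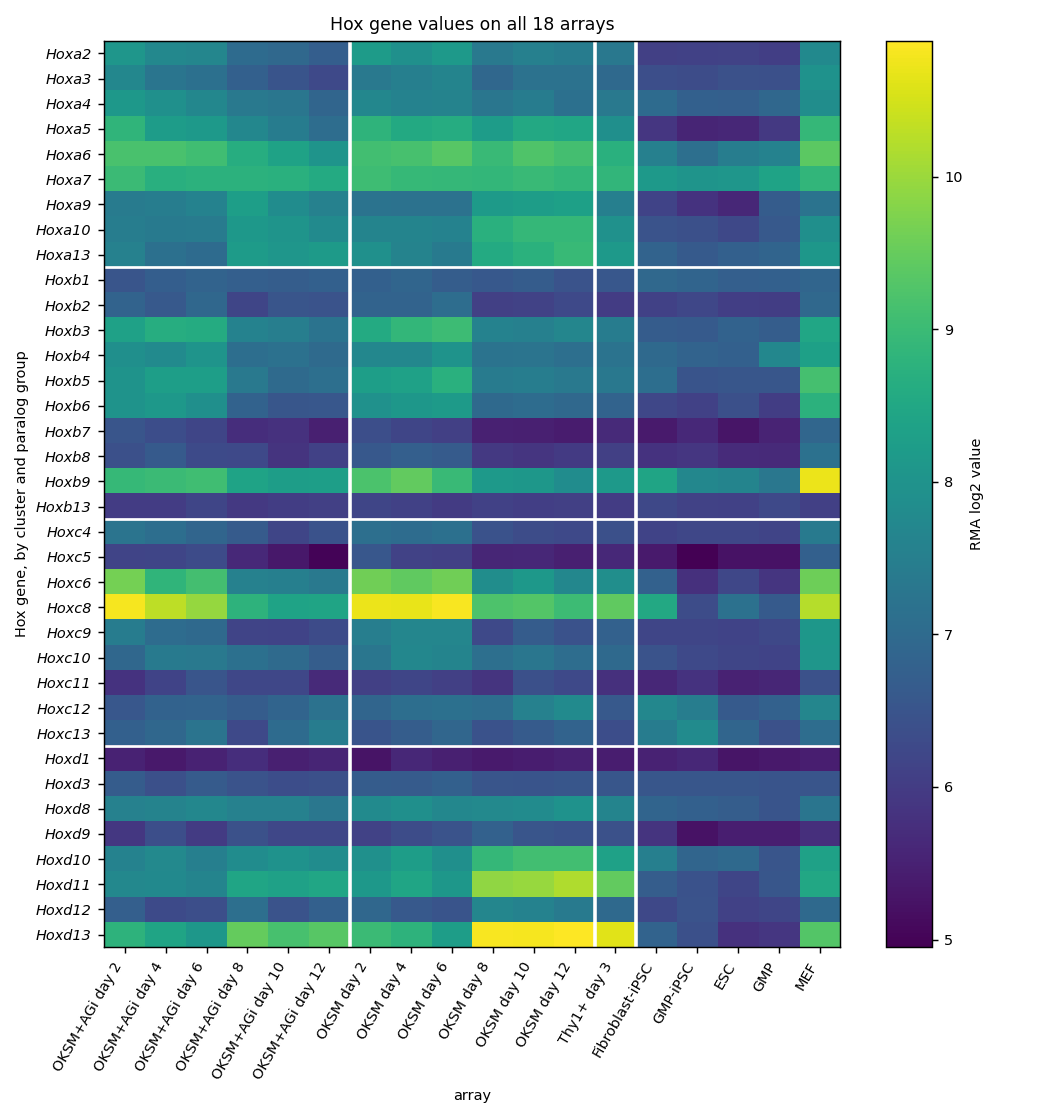
RMA log2 value (colour scale) of the 36 Hox genes (rows, by cluster and paralog group) on all 18 arrays (columns): OKSM+AGi and OKSM cultures by day, Thy1+ cells, Fibroblast-iPSCs, GMP-iPSCs, ESCs, GMPs and MEFs. From day 8 most Hoxb and Hoxc rows darken, and the lower Hoxd rows brighten in OKSM cultures and less so in OKSM+AGi cultures. The Thy1+ column resembles the late OKSM columns in most Hoxb and Hoxc rows and for Hoxd13, at 10.62.

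Paired by day over the 6 days, 17 of 31 Hox genes were called lower in OKSM+AGi than in OKSM cultures and none was called higher, beside 19.3% of all genes tested that were lower and 19.6% that were higher. By cluster the lower calls were 6 of 7 tested in Hoxd, 5 of 9 in Hoxa, 5 of 7 in Hoxc and 1 of 8 in Hoxb. The median difference was -0.26 over the Hox genes tested and 0.00 over all genes tested. Most differences were small. When the difference had to exceed the largest one among the hybridisation controls, 0.26, 2 lower Hox calls were left, Hoxd10 and Hoxd11. Over all 13865 genes tested, 754 were called lower at that limit. Without the day as a block 2 Hox genes were called lower, beside 1829 of all genes tested. In these 2 settings the Hox share was not clearly above that of all genes. Without day 8 there were 10 Hox genes lower and 1 higher, beside 1842 and 1692 of all genes tested. Without day 10 there were 8 lower, beside 1999. Markers of cell types moved in the same comparison: of 13 fibroblast markers 11 were lower with AGi (median -0.91) and none higher, of 10 macrophage markers tested 5 were lower and 1 higher (median -0.76), and of 12 pluripotent cell markers 7 were higher and none lower (median 1.57). Their part in the Hox differences was not tested.

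Hoxd11 had the largest difference, -1.05 ± 0.20 on the log2 scale (limma SE over 6 days, adjusted p = 0.00594), and was lower on 6 of 6 days. Hoxd13 differed by -0.89 ± 0.24 (limma, adjusted p = 0.0199) and Hoxd10 by -0.78 ± 0.14 (limma, adjusted p = 0.00469), both lower on 6 of 6 days. Hoxa5 differed by -0.63 ± 0.18 and was lower on 5 of 6 days (limma, adjusted p = 0.0236). Hoxc8 differed by -0.53 ± 0.13 on 5 of 6 days and Hoxa10 by -0.52 ± 0.14 on 6 of 6 days (limma, adjusted p = 0.0155 and 0.0206). The other lower genes were Hoxa13, Hoxd12, Hoxc12, Hoxa2, Hoxc6, Hoxc9, Hoxd8, Hoxb5, Hoxc10, Hoxd9 and Hoxa7, with differences between -0.49 and -0.18. Hoxc12, at 6.57, 6.82, 6.84, 6.69, 6.86 and 7.20 in OKSM+AGi cultures and 6.89, 7.09, 7.15, 7.07, 7.56 and 7.80 in OKSM cultures, was lower on each day. The uncalled genes Hoxa3, Hoxa6, Hoxb3, Hoxb6 and Hoxd3 had differences between -0.41 and -0.11, and those of Hoxa4, Hoxa9, Hoxb1, Hoxb2, Hoxb4, Hoxb8, Hoxb9 and Hoxc4 were between -0.04 and 0.09. Hoxc13 was the highest, at 0.27 ± 0.10 (limma, adjusted p = 0.0595), higher with AGi on 5 of 6 days.

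The AGi difference was larger on the late days for Hoxd13, Hoxd11 and Hoxd10. On days 2 to 6, 3 Hox genes were called lower with AGi, Hoxd11, Hoxd10 and Hoxa13, beside 8.20% of all genes tested. On days 8 to 12, 15 were called lower, beside 20.6%. The change of the AGi effect between the periods was itself called for 3 genes, beside 1.80% of all genes tested. For Hoxd13 the AGi difference was -1.53 on days 8 to 12 and -0.25 on days 2 to 6, a change of -1.28 ± 0.13 (limma, n = 3 days each, adjusted p = 0.0162). For Hoxd11 the differences were -1.59 and -0.51, a change of -1.08 ± 0.13 (limma, adjusted p = 0.0196), and for Hoxd10 they were -1.15 and -0.42, a change of -0.73 ± 0.12 (limma, adjusted p = 0.0317). No Hox gene was called when day 2, day 4 or day 10 was left out, and 7 were called without day 8, so these 3 calls rest on few arrays. Over all 13865 genes tested, 21, 16 and 0 were called lower without day 2, day 4 and day 10, and 275 without day 8. The loss of calls was thus not particular to the Hox genes. With either day 4 or day 6 left out, the lower Hox calls on days 2 to 6 were 0, beside 42 and 44 of all genes tested. They were 2 to 6 when any of the other days was left out, beside 774 to 1477 of all genes tested. With day 10 or day 12 left out, the lower calls on days 8 to 12 were 10, beside 1992 and 2600. In the change between the periods, 5 of 10 macrophage markers were called lower (median -0.95), 4 of 12 pluripotent cell markers higher (median 1.73) and none of 13 fibroblast markers (median -0.02), and their part was not tested. Hoxa5, with a change of -0.75 ± 0.23 (limma, adjusted p = 0.144), and Hoxa6, with -0.72 ± 0.21 (limma, adjusted p = 0.128), were not called.

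**Figure D5:**
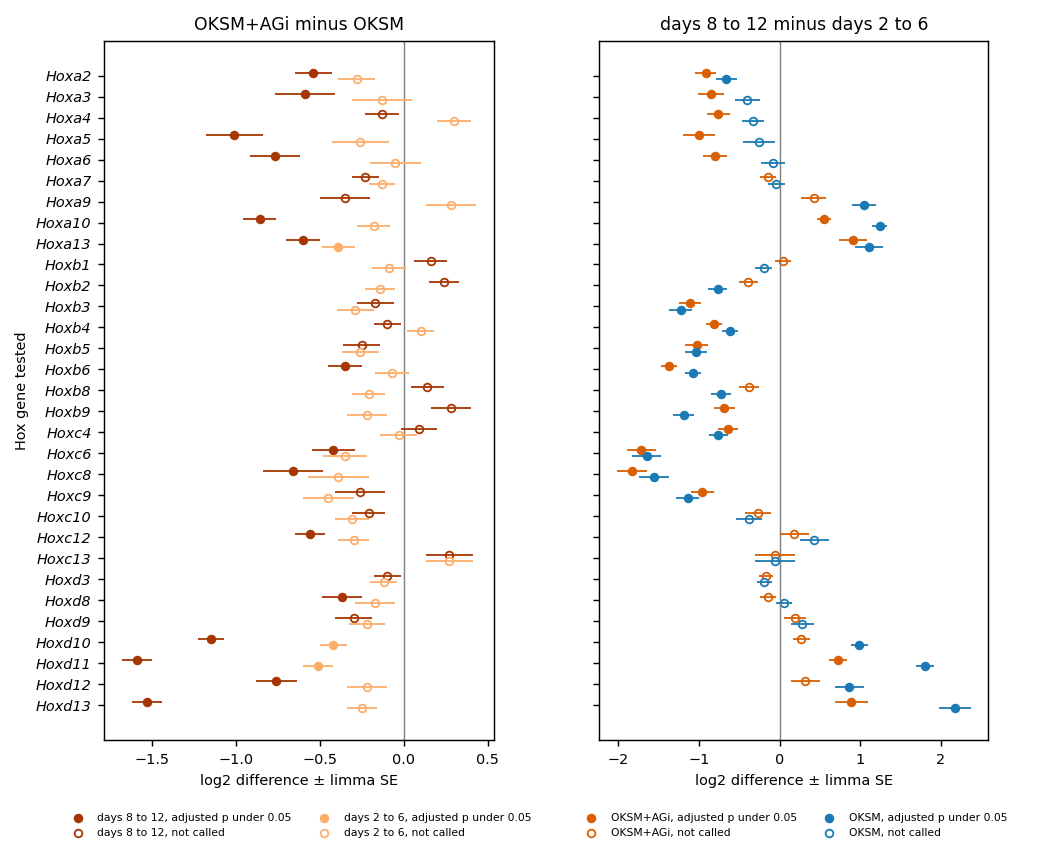
Log2 difference with limma SE (horizontal axes) for the 31 Hox genes tested (vertical axis). Left: OKSM+AGi minus OKSM on days 8 to 12 (dark) and on days 2 to 6 (light); right: days 8 to 12 minus days 2 to 6 in OKSM+AGi (orange) and OKSM (blue) cultures; filled points have an adjusted p under 0.05. Hoxd11 and Hoxd13 lie farthest left in the left panel on the late days (-1.59 and -1.53), and the distal Hoxa and Hoxd genes lie right of 0 in the right panel while Hoxb and Hoxc genes lie mostly left.

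The cultures were also set against MEFs. These comparisons all use the single MEF array and so share their control. Its spread is assumed to be that of the time-course arrays, and no spread between MEF samples enters the SE or the p-values. In late OKSM+AGi cultures 19 of 31 Hox genes were lower than in MEFs and 1, Hoxa9, was higher, beside 14.8% and 23.5% of all genes tested. In late OKSM cultures 13 were lower and 7 higher, beside 7.59% and 15.1%. In early OKSM+AGi cultures 13 were lower, beside 11.5%, and in early OKSM cultures 4 were lower and 1, Hoxd8, was higher, beside 5.80% and 9.81%. Without day 4 the early count lower was 8 in OKSM+AGi cultures, beside 1076 of all 13865 genes tested. Without day 4, 8 or 10 it was 2 in OKSM cultures, beside 533, 643 and 605. In these OKSM settings the Hox share was not clearly above that of all genes. The Hox genes higher in early OKSM cultures were 0 without day 4 or 10, beside 839 and 1016 of all genes tested. Those higher in late OKSM+AGi cultures were 2 without day 2 and 0 without day 10, beside 3551 and 2496.

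Hoxb9 was the farthest below MEFs in all 4 comparisons. Its difference was -1.72 ± 0.18 in early and -2.41 ± 0.18 in late OKSM+AGi cultures, and -1.5 ± 0.18 and -2.68 ± 0.18 in early and late OKSM cultures (limma, adjusted p between 9.59e-06 and 0.000371). Hoxb6, Hoxb5, Hoxc6 and Hoxc9 differed from MEFs by -2.12 to -1.88 in late OKSM+AGi cultures and by -1.77 to -1.62 in late OKSM cultures. Hoxc10, at 6.93, 7.39, 7.34, 7.15, 7.0 and 6.70 in OKSM+AGi cultures and 7.28, 7.69, 7.63, 7.11, 7.28 and 7.08 in OKSM cultures, was below the MEF value of 8.07 on all 12 arrays. Hoxb8 was at 6.40, 6.64, 6.29, 6.25, 5.85 and 6.09 in OKSM+AGi cultures and at 6.58, 6.74, 6.65, 5.93, 5.87 and 5.96 in OKSM cultures, also below the MEF value of 7.17 throughout.

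The 7 genes above MEFs in late OKSM cultures were Hoxd13, Hoxd11, Hoxa9, Hoxa10, Hoxd9, Hoxd10 and Hoxd8. Hoxd13 was 1.54 ± 0.28 above MEFs (limma, adjusted p = 0.00357) and Hoxd11 1.5 ± 0.16 (limma, adjusted p = 0.000149). In late OKSM+AGi cultures the differences of these genes from the MEF array were 0.01 ± 0.28 and -0.10 ± 0.16. Hoxd9 was at 5.92, 6.37, 5.98, 6.42, 6.21 and 6.22 in OKSM+AGi cultures and at 6.13, 6.33, 6.46, 6.80, 6.51 and 6.44 in OKSM cultures, against 5.75 in MEFs. Hoxd8 was at 7.56, 7.60, 7.71, 7.57, 7.57 and 7.31 in OKSM+AGi cultures and at 7.79, 7.91, 7.69, 7.75, 7.81 and 7.98 in OKSM cultures, against 7.26 in MEFs, with all 12 arrays above MEFs.

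For the 24 genes that mark MEFs, the distance covered was expressed as a percentage, with 0 at the MEF value and 100 at the pluripotent mean. The median over these genes in OKSM+AGi cultures was 27%, 34%, 34.7%, 51.8%, 61.3% and 74.6% on days 2 to 12. In OKSM cultures it was 19.2%, 21.7%, 21.8%, 52.9%, 44.5% and 52.6%. The medians of the arms were thus close on day 8 and apart by day 12, when 18 of 24 genes had passed 50% in OKSM+AGi cultures and 12 of 24 in OKSM cultures. Single genes already differed between the arms on day 8, in both directions. Hoxd11 stood at 3.6% in OKSM+AGi and -66.3% in OKSM cultures on that day, and Hoxb8 at 66.5% and 89.7%. The spread between genes was wide, with 112% at the top and -27.1% at the bottom on day 12 in OKSM+AGi cultures, and 102% and -83.2% in OKSM cultures. Thy1+ cells stood at 54.5%, and GMPs, which did not come by way of fibroblasts, at 99.0%. Fibroblast-iPSCs stood at 92.2%, GMP-iPSCs at 103% and ESCs at 106%, which the scale fixes near 100, since their mean sets that point. The 24 genes were chosen for a MEF value at least 1 log2 above that mean, on the same single MEF array. That choice favours positions away from 0 on the other arrays. The 12 pluripotent cell markers averaged 10.22 in OKSM+AGi cultures on day 12, against 8.06 in OKSM cultures, and their part in these positions was not tested.

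The 5 Hox genes that were too low to be tested kept low values. Hoxb7 was between 5.48 and 6.52 in OKSM+AGi cultures and between 5.40 and 6.38 in OKSM cultures, against 6.90 in MEFs. Hoxc5 was between 5.0 and 6.31 in OKSM+AGi cultures and between 5.48 and 6.57 in OKSM cultures, against 6.78 in MEFs. Both were lower on day 8 than on day 6 in each arm, like their tested neighbours. Hoxc11 lay between 5.53 and 6.51, Hoxb13 between 5.93 and 6.26 and Hoxd1 between 5.27 and 5.72 over all 18 arrays. Hoxb1 and Hoxd3 passed the filter and stayed between 6.48 and 6.96 and between 6.36 and 6.77.

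Other genes that mark position in mesenchyme moved as well. Of 18 such regulators tested, 6 rose and 1 fell in late against early OKSM cultures, beside 6.95% and 3.65% of all genes tested, and 2 rose and 2 fell in OKSM+AGi cultures, beside 6.58% and 3.95%. Tbx4, the hindlimb T-box factor, was at 8.24, 7.89, 7.84, 8.90, 8.68 and 8.29 in OKSM+AGi cultures and at 8.29, 8.01, 7.76, 9.65, 9.56 and 9.75 in OKSM cultures on days 2 to 12, and at 9.37 in Thy1+ cells and 8.14 in MEFs. It rose by 0.63 ± 0.17 in OKSM+AGi cultures (limma, adjusted p = 0.0424) and by 1.63 ± 0.17 in OKSM cultures (limma, adjusted p = 0.000235), the same direction as the distal Hoxd genes. Prrx2, a limb mesenchyme homeobox gene, rose by 0.63 and 1.02. En1, a homeobox gene of the ventral limb and midbrain, fell by 0.62 and 0.48. With AGi over the 6 days 11 of the 18 were lower and none was called higher, beside 19.3% and 19.6% of all genes tested, led by Emx2, a urogenital and shoulder blade regulator, at -1.54 ± 0.26 (limma, adjusted p = 0.00373), and Tbx5, the forelimb T-box factor, at -1.53 ± 0.17 (limma, adjusted p = 0.00107).

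Hox cofactors and chromatin regulators of the clusters gave mixed results. Of 8 cofactors tested, 5 were lower and 1 higher with AGi, beside 19.3% and 19.6% of all genes tested, with Pbx3 at -0.69 ± 0.13, Meis1 at -0.50 ± 0.09 and Pknox1 at 0.22 ± 0.06 (limma, adjusted p = 0.00539, 0.00389 and 0.0214). Meis2 fell between the early and late days by 0.79 ± 0.10 in OKSM+AGi cultures and by 0.75 ± 0.10 in OKSM cultures (limma, adjusted p = 0.00238 and 0.0012). Of 26 Polycomb subunits, which keep silent Hox clusters repressed, 8 were higher and 5 lower with AGi, beside the same 19.6% and 19.3%. Phc1 was higher by 0.78 ± 0.15 and Cbx2 differed by -0.51 ± 0.07 (limma, adjusted p = 0.00554 and 0.0019), and Ezh2, the H3K27 methyltransferase, was not called at 0.26 ± 0.09 (limma, adjusted p = 0.0567). Cbx7, the main Cbx protein of pluripotent cells, was at 7.74, 8.29, 8.77, 9.47, 9.75 and 10.44 in OKSM+AGi cultures and at 7.89, 8.58, 8.83, 8.36, 8.50 and 8.70 in OKSM cultures, and its AGi effect was 1.54 ± 0.18 larger on the late days (limma, adjusted p = 0.0178). Of 13 genes of the MLL complexes and H3K27 demethylases, which keep Hox genes active, 5 were higher and none was called lower with AGi, beside the same background. Wdr5 was highest at 0.68 ± 0.15 (limma, adjusted p = 0.0101), while Kmt2a was at -0.22 ± 0.11 (limma, adjusted p = 0.158). In late against early days, 6 of 26 Polycomb genes were higher in OKSM+AGi cultures and none was called lower, beside 6.58% and 3.95% of all genes, with Cbx7 highest at 1.62 ± 0.31 (limma, adjusted p = 0.0127). In OKSM cultures 2 were called, with Phf1 rising by 0.69 and Pcgf6 at -0.50, beside 6.95% and 3.65%. No gene of the MLL list was called in either arm.

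The Hox clusters also carry the miR-10 and miR-196 genes, which repress Hox transcripts. Their mature sequences in RefSeq (GRCm38.p6), 5′ to 3′ with the seed at bases 2 to 8 in capitals, show the shared seed within each family.
mmu-miR-196a-5p: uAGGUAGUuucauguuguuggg
mmu-miR-196b-5p: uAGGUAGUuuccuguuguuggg
mmu-miR-10a-5p: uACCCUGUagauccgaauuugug
mmu-miR-10b-5p: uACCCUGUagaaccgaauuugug
Counted from 1 at the 5′ end, miR-196b-5p differs from miR-196a-5p by A12C and miR-10b-5p from miR-10a-5p by U12A, both outside the seed. Of the genes for these, Mir196a-1, in the Hoxb cluster on chromosome 11 (96265187 to 96265208 for the mature sequence, plus strand), Mir196a-2, in the Hoxc cluster on chromosome 15 (102973365 to 102973386, plus strand), which gives the same mature sequence, and Mir10b, in the Hoxd cluster, had a probe set of their own. Mir196a-1 was at 7.39, 7.81, 7.85, 6.53, 6.93 and 6.74 in OKSM+AGi cultures and at 7.36, 7.70, 7.66, 6.16, 6.39 and 5.91 in OKSM cultures on days 2 to 12, against 7.76 in MEFs. It fell by 0.95 ± 0.17 in OKSM+AGi cultures (limma, adjusted p = 0.00987) and fell by 1.42 ± 0.17 in OKSM cultures (limma, adjusted p = 0.000496), alongside Hoxb9. Unlike the called Hox genes it was higher with AGi, by 0.34 ± 0.11 on 6 of 6 days (limma, adjusted p = 0.0389). Whether its probe set read the mature miRNA, its precursor or a longer transcript across the locus was not tested. Mir196a-2 stayed between 4.74 and 5.4 and Mir10b between 3.57 and 3.84 on all 18 arrays, and neither passed the filter on low values.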

How the data were processed

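What was deposited are RMA values on the log2 scale, 1 per probe set of an Affymetrix array; per the submitters' processing notes the authors used Affymetrix Expression Console. The sources used here do not give versions, scan dates or a genome build, so array handling was not tested as a batch. Of 41345 probe sets, 23521 had 1 gene symbol, updated by gene ID through RefSeq's table for GRCm38.p6, which gave 22180 genes, each read from 1 probe set, the one whose mean over all 18 arrays was highest. Differences were fitted in R 4.3.3 by lmFit and eBayes of limma 3.58.1, with Benjamini-Hochberg adjustment over 13865 genes and a threshold of 0.05, on 12 time-course arrays, or 13 with the MEF array. The AGi effect had the day as a block (5 residual degrees of freedom), its change between periods had 4, and changes within an arm or against MEFs had 8. Single arrays were compared by size only, with a gene compared where 1 of its arrays reached the array median. Genes given in full were the 10 with the highest MEF values, up to 6 highest and 6 lowest calls per comparison, and regulators with large calls. The Hox genes, the split of days, the lists and the alternatives were chosen with earlier results of these data known. The fits were tested on simulated arrays. Alternatives were other filters, probe set rules, scaling, variance models, fold limits and day terms, and leaving out each day. Figures were drawn with matplotlib 3.10.9.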

Additional observations from a re-analysis of the deposited data

Results flagged for a closer look

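For 3 Hoxd genes the AGi effect differed between the late and the early days by a test of the difference itself (limma, late minus early days of the OKSM+AGi minus OKSM difference). The change was -1.28 for Hoxd13, -1.08 for Hoxd11 and -0.73 for Hoxd10 (limma, adjusted p = 0.0162, 0.0196 and 0.0317, lower with AGi on 6 of 6 days for each gene). In 1 group a single array stood apart from the rest: Hoxd8 was at 7.31 in OKSM+AGi cultures on day 12, with its nearest neighbour at 7.56. Of 72 such groups examined, chance alone gives about 1 in 20.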

How the results depend on the processing

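The number of arrays limits the precision, and small differences are limited by the shift of the hybridisation controls. Taken over the 6 days, the AGi effect gave 17 Hox genes lower and 0 higher, and leaving out each day gave 8 to 17 lower and 0 to 1 higher; 1 was higher without a filter on low values and 1 with quantile normalization, while 2 were lower without the day as a block and 2 were lower when tested against the largest control difference. Over all 13865 genes tested, 1829 were lower without the day as a block and 754 against the largest control difference. Leaving out each day gave 1842 to 2729 lower and 1692 to 2884 higher over all genes. Without a filter 2615 of 22180 genes were higher, and with quantile normalization 2892 of 13865. The late minus early change of the AGi effect gave 3 Hox genes lower. It gave 0 to 7 when each day was left out, beside 0 to 275 of all genes tested. For late minus early days the counts were 4 higher and 14 lower in OKSM+AGi cultures and 7 and 12 in OKSM cultures. With a linear day term, an alternative chosen after seeing the data, they became 0 and 0 in OKSM+AGi cultures and 3 and 2 in OKSM cultures. This fit has fewer residual degrees of freedom. Over all 13865 genes tested it called 1 higher and 2 lower in OKSM+AGi cultures and 43 and 9 in OKSM cultures. Leaving out each day gave 1 to 4 Hox genes higher and 9 to 15 lower in OKSM+AGi cultures, and 6 to 8 higher and 12 to 13 lower in OKSM cultures. Over all genes tested these runs called 91 to 1022 higher and 50 to 456 lower in OKSM+AGi cultures. In OKSM cultures they called 409 to 1196 higher and 122 to 510 lower. Against MEFs, leaving out each day gave 0 to 1 Hox genes higher and 8 to 16 lower in early OKSM+AGi cultures, beside 1684 to 2867 and 1076 to 2034 of all genes. In early OKSM cultures it gave 0 to 1 higher and 2 to 5 lower, beside 839 to 1535 and 528 to 1076. In late OKSM+AGi cultures it gave 0 to 2 higher and 17 to 19 lower, beside 2496 to 3551 and 1654 to 2317. In late OKSM cultures it gave 7 to 8 higher and 12 to 13 lower, beside 1339 to 2482 and 636 to 1287. Quantile normalization gave 0 Hox genes higher in early OKSM cultures, beside 1059 of all genes. With a fold of 2 log2 in place of 1, the Hox counts were 7 lower in GMPs and 9 lower in the pluripotent mean against MEFs, 0 higher in Fibroblast-iPSCs against ESCs, 0 higher and 1 lower in Thy1+ cells against MEFs, 0 higher and 0 lower from day 6 to day 8 in OKSM+AGi cultures, and 1 higher and 0 lower in OKSM cultures. Quantile normalization gave 1 Hox gene higher in GMP-iPSCs than in ESCs. The share of all genes was not counted at 2 log2 or in this setting, so whether these Hox counts stand out is not known. Direction was checked only for the up to 6 highest and 6 lowest Hox calls per comparison, and none of these turned under any alternative run. The AGi effects of days 2 to 6 and of days 8 to 12 were left out of that check. It says nothing about the size of a difference. The AGi comparisons were paired by day. Between Fibroblast-iPSCs and GMP-iPSCs, the only groups whose labels share a replicate number, no paired analysis was possible because each is a single array.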
